A study of Mus musculus with 745 samples.

Results

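Alpl encodes tissue-nonspecific alkaline phosphatase and was 1 of 20607 genes in a table of raw read counts over single brain endothelial cells. The cells came from 3-month-old mice labelled young, and no age, treatment or genotype was compared. The series asks how proteins of the circulation reach the brain and how ageing alters it. Brain tissue was taken apart with a Miltenyi neural dissociation kit and endothelial cells were collected by FACS; the sources used here do not name the gate, the strain or the sex. Cell titles carried a prefix, Young1 for 30.2% of the cells, Young2 for 34.6% and AY_Y3 for 35.2%. The labels do not say whether a prefix is a mouse, a pool or a plate, so the p-values below measure only the spread between 3 prefixes, which may be technical.

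Tissue-nonspecific alkaline phosphatase is a zinc enzyme held on the outer face of the plasma membrane by a glycosylphosphatidylinositol (GPI) anchor. It removes phosphate from pyrophosphate, from extracellular nucleotides and from pyridoxal phosphate, and it is best known for allowing bone to mineralise and vitamin B6 to enter cells. In the brain its activity has long served to stain small vessels, arterioles and capillaries more than venules.

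Cells were divided by 4 genes of vessel identity. Arterial cells had a count of Bmx, a cytoplasmic tyrosine kinase of arterial endothelium, or of Gkn3, a secreted protein of brain arteries. Venous cells had a count of Nr2f2, the transcription factor that maintains vein identity, or of Il1r1, the interleukin-1 receptor of brain venules. Remaining cells had none of the 4, and cells with a gene of each pair formed a class of their own, called both. After 49 cells with 5000 CPM or more (the share of a cell's counts, scaled to 1000000) of another cell type's markers were left out, 696 cells stayed, of which 18.5% were arterial, 56.2% remaining (391 cells), 21.4% venous and 3.88% both (27 cells). Alpl played no part in this division.

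In GENCODE mouse release M21, on GRCm38, Alpl lies on chromosome 4 from 137741733 to 137796384 on the minus strand, and 0 other annotated genes overlap it. RefSeq lists 2 starts, 29909 bases apart, and counts per gene cannot show which start a cell used. The 250 bases before each start are printed here because the gene has these alternative promoters. They run 5′ to 3′ on the minus strand of GRCm38.p6, from chr4:137796385-137796634 for start 1 and chr4:137766476-137766725 for start 2, and capitals mark the GC box letters GGGCGG on either strand.
Alpl start 1: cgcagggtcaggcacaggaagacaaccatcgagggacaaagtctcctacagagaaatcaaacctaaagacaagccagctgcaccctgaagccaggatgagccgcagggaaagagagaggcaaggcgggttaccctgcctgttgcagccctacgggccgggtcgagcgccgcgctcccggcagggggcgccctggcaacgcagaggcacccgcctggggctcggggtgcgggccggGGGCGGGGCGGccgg
Alpl start 2: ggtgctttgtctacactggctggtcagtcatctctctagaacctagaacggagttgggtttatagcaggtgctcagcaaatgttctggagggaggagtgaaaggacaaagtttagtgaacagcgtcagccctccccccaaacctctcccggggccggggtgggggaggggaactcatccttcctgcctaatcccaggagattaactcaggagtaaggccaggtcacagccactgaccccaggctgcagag
Start 1 had 2 GC box matches, which overlap each other, 20 CpG pairs and 68.4% G and C. Start 2 had 0 GC box matches, 4 CpG pairs and 56% G and C, and 1 match to TATAAA on either strand. Among 32851 RefSeq windows of the same length, 32.7% held GGGCGG, 12.4% held TATAAA, and the median G and C content was 52.4%. Neither Alpl window held TGGGAA, the core of the site bound by the Notch partner RBPJ, which 21.6% of windows held; this says only that these letters are not in these bases.

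Alpl was present in a minority of brain endothelial cells and was concentrated in arterial cells. It had a count in 280 of the 696 cells (40.2%, exact 95% interval 36.6 to 43.98), and the share by prefix was 42.9% in Young1, 38.1% in Young2 and 40% in AY_Y3. A cell either held many Alpl reads or none: 18 cells lay between 1 and 9 counts, and the median among cells with a count was 1145 CPM. Reads carried no molecular identifiers. The exact intervals of shares cover counting error over cells only, not the spread between prefixes.

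In arterial cells Alpl had a count in 84% of 25 cells of Young1, 90.4% of 52 cells of Young2 and 84.6% of 52 cells of AY_Y3. In remaining cells it had a count in 59 cells of Young1 (42.1%), 35 of Young2 (28.5%) and 44 of AY_Y3 (34.4%). In venous cells it had a count in 21.4% of 42, 7.55% of 53 and 9.26% of 54 cells. The classes did not overlap: the lowest arterial prefix lay above the highest remaining one, and the lowest remaining prefix lay above the highest venous one. Over the prefixes the shares were 86.3% ± 3.52 for arterial, 34.99% ± 6.86 for remaining and 12.7% ± 7.57 for venous cells (SD, n = 3). Arterial cells exceeded remaining cells by 51.3 percentage points and venous cells by 73.6, and the venous minus remaining difference was −22.2 points. Each difference had the same sign in 3 of 3 prefixes, and the two-sided exact sign-flip permutation test gave p = 0.25 for each, the smallest value that 3 prefixes allow.

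Depth did not follow this order. Median counts per cell were 638930 in arterial, 579240 in remaining and 658109 in venous cells, and with every cell thinned to 50000 counts the shares were 85.1%, 32.98% and 11.3%. Over all cells kept, Spearman's rho between Alpl CPM and counts per cell lay between −0.02 and 0.04 in the 3 prefixes. Genes with a count per cell after thinning had medians of 1861 in arterial, 1505 in remaining and 2149 in venous cells. Their rho with Alpl CPM was 0.08 to 0.37 in arterial, 0.08 to 0.16 in remaining and −0.03 to 0.04 in venous cells. Remaining cells are defined by the absence of 4 genes, and the part of genes per cell in these shares was not tested.

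**Figure D1:**
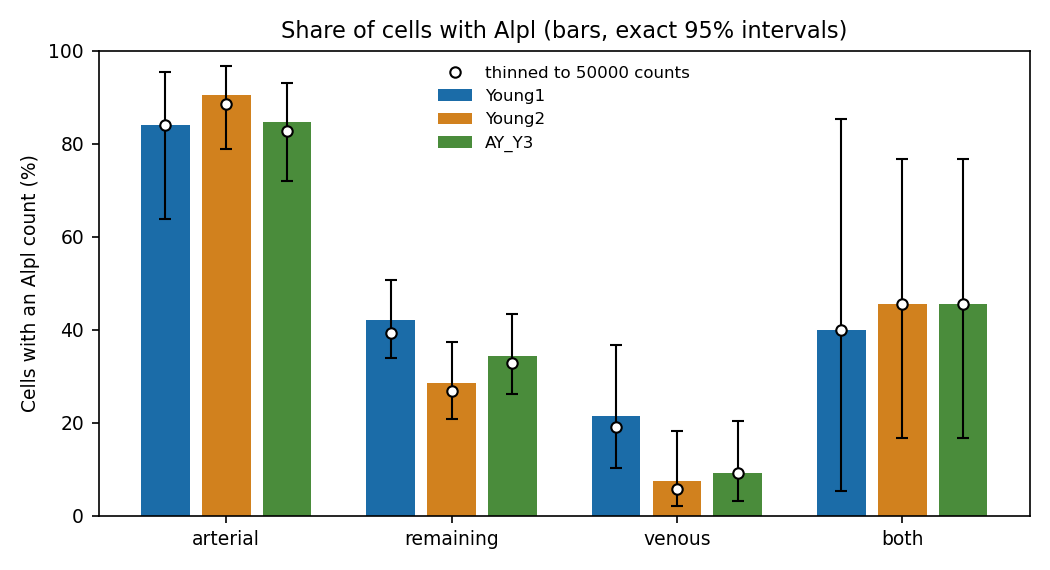
Share of cells with an Alpl count (%, bars) by class and title prefix, with exact 95% intervals for counting error; open circles give the share after thinning each cell to 50000 counts. Arterial bars lie between 84% and 90.4%, remaining bars between 28.5% and 42.1%, and venous bars between 7.55% and 21.4%.

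The level of Alpl followed the same order as its detection. The mean over arterial cells was 1510 CPM in Young1, 1402 CPM in Young2 and 1650 CPM in AY_Y3. The mean over remaining cells was 477, 318 and 320 CPM, and over venous cells 140.5, 49.1 and 40.1 CPM. No prefix of one class reached the range of another, and Young1 was the highest prefix among remaining and venous cells but not among arterial cells. The prefix means averaged 1520 ± 124.2 CPM for arterial, 372 ± 91.2 CPM for remaining and 76.6 ± 55.6 CPM for venous cells (SD, n = 3).

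Counts were then summed per prefix and class and fitted over 8987 genes with edgeR's quasi-likelihood test, Benjamini-Hochberg adjusted, with the prefix as a block. Alpl rose from venous to arterial cells by 4.60 ± 0.45 on the log2 scale (SE; 95% interval 3.54 to 5.65, adjusted p = 0.00429), and was higher in 3 of 3 prefixes. In that comparison 1.16% of all tested genes were called higher and 0.901% lower in arterial cells. Both neighbouring steps missed the threshold. Between arterial and remaining cells the log2 difference of Alpl was 1.97 ± 0.40 (1.04 to 2.90, edgeR adjusted p = 0.118), where 0.089% of genes were called higher and 0.312% lower. Between venous and remaining cells it was −2.63 ± 0.41 (−3.59 to −1.66, edgeR adjusted p = 0.136), where 0.0779% of genes were called. Both steps passed under DESeq2 (adjusted p = 0.00114 and 1.06e-05) and limma (7.89e-06 and 0.0155). The arterial to venous call was lost without Young2 (4.48, adjusted p = 0.132) or without AY_Y3 (4.09, adjusted p = 0.0686), with the sign of the difference as before; its adjusted p under 14 alternatives had a range of 8.01e-20 to 0.132.

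Markers of other cells also differed between the classes. The summed level of 6 smooth muscle markers was 135.5 ± 3.32 CPM in arterial, 30.3 ± 15.6 CPM in remaining and 15.6 ± 18.1 CPM in venous cells, with Tagln and Cnn1 at 0 counts in arterial cells. Single genes are given as CPM of the summed counts, a measure unlike these means over cells. Mylk, a myosin kinase also present outside muscle, was at 150.04 ± 31.3 CPM in arterial and 19.6 ± 9.75 CPM in remaining cells. The contractile gene Acta2 was at 0.575 ± 0.859 CPM in arterial and 3.98 ± 6.87 CPM in remaining cells, and Myh11 at 0.434 ± 0.752 and 1.74 ± 2.55 CPM. The sum of 10 pericyte markers ran the other way, 93.6 ± 50.2, 327 ± 76.2 and 468 ± 76.3 CPM, and 7 of the 10 had no count in arterial cells. The sum of 9 general endothelial markers was 9190 ± 128.5 CPM in arterial, 10700 ± 761 CPM in remaining and 10806 ± 848 CPM in venous cells. The part of Mylk or of pericyte transcripts in the Alpl difference was not tested.

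Alpl varied strongly from cell to cell within every class. Arterial cells had medians of 1198, 1140 and 1387 CPM in Young1, Young2 and AY_Y3, and the highest arterial cell reached 5397 CPM. The quartiles of the arterial cells ran from 400.2 to 2368 CPM, and the coefficient of variation over these cells was 0.89. Remaining and venous cells had a median of 0 CPM in every prefix, with highest cells of 4649 and 1790 CPM and coefficients of variation of 1.99 and 3.72. The most Alpl-rich remaining cells thus lay within the upper arterial quartile, and 86.8% of all arterial cells had a count.

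Among cells that had Alpl at all, remaining and venous cells carried less of it than arterial cells, and cells of the class both overlapped with arterial cells. Among cells with a count, the mean of the prefix medians was 1425 ± 243.1 CPM in arterial, 839 ± 127.8 CPM in remaining and 409 ± 110.5 CPM in venous cells (SD, n = 3). The venous medians rest on 9 cells with a count in Young1, 4 in Young2 and 5 in AY_Y3. In the class both it was 1692 ± 485 CPM, over 12 cells with a count, which overlaps the arterial range. In Young1 the median of the class both was 1138 CPM over 2 cells with a count, below the 1337 CPM of arterial cells. Cells at 1000 CPM or more made up 77 arterial cells (59.7%), 62 of 391 remaining cells (15.9%) and 5 venous cells (3.36%). Over arterial, remaining and venous cells, the share of cells with Alpl and the level in those cells ran in the same order.

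**Figure D2:**
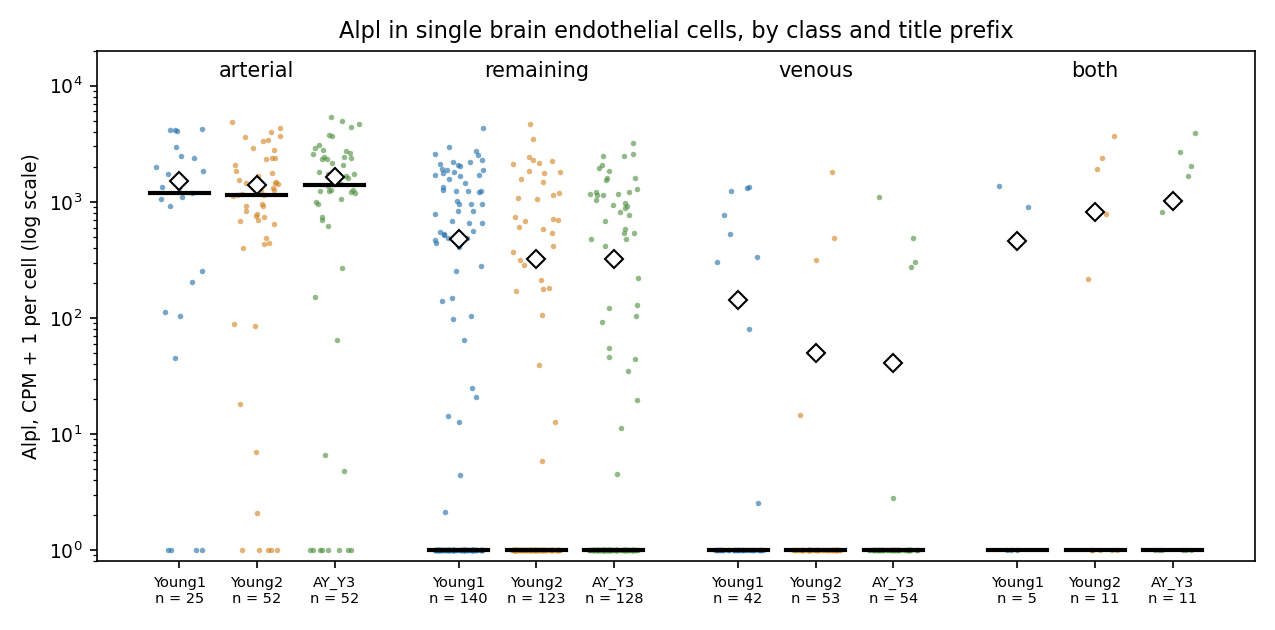
Alpl in each of the 696 cells (CPM + 1, log axis) by class and title prefix; black bars are medians and open diamonds means. Arterial medians lie between 1140 and 1387 CPM, while the medians of remaining and venous cells lie at 0 CPM in every prefix.

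The classes contributed unequally to the Alpl of a prefix. Arterial cells held 33.5% of the summed Alpl CPM in Young1, 58.99% in Young2 and 61.3% in AY_Y3, and remaining cells held 59.3%, 31.7% and 29.3%. Venous cells held 5.24%, 2.11% and 1.55%. Young1 stood apart: arterial cells were 11.8% of its cells kept, against 21.8% in Young2 and 21.2% in AY_Y3, and its remaining cells had the highest Alpl share and mean. The sum of 12 arterial markers other than the class genes, in remaining cells, was 1212 CPM in Young1, 828 CPM in Young2 and 939 CPM in AY_Y3. What part arterial cells without a Bmx or Gkn3 read had in the Young1 values was not tested.

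Within the arterial class Alpl was high whichever class gene was detected. It had a count in 37 of 41 cells with both Bmx and Gkn3 (90.2%, mean 1847 CPM), in 67 of 80 cells with Bmx alone (83.8%, 1318 CPM) and in 8 of 8 cells with Gkn3 alone (1907 CPM). The prefix means overlapped between the first 2 sets, at 1436, 1833 and 2053 CPM with both genes and 1628, 1161 and 1316 CPM with Bmx alone. With 8 cells, of which 1 came from Young1, the Gkn3 set does not allow a ranking.

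Within the venous class Alpl was most frequent in cells with Nr2f2 alone and nearly missing where both venous genes were detected. It had a count in 14 of 51 cells with Nr2f2 alone (27.5%, exact 95% interval 15.9 to 41.7, mean 182.8 CPM) and in 3 of 40 cells with Il1r1 alone (7.5%, 1.57 to 20.4, mean 33.7 CPM). Among cells with both venous genes it had a count in 1 of 58 (1.72%, 0.0436 to 9.24), and that cell stood at 1.54 CPM. By prefix, the share was 43.8%, 14.3% and 28.6% with Nr2f2 alone against 7.14%, 0% and 0% with both genes, so the ranges did not overlap. These subsets were described and not tested.

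The 27 cells with an arterial and a venous gene lay between arterial and remaining cells in Young2 and AY_Y3, and just below remaining cells in Young1. Their mean Alpl was 455 CPM over 5 cells of Young1, 813 CPM over 11 cells of Young2 and 1007 CPM over 11 cells of AY_Y3. Of these, the 8 cells with Gkn3 all had Alpl (mean 1991 CPM), whereas it had a count in 6 of 20 cells with Bmx and Nr2f2 and in 8 of 22 with Bmx and Il1r1. The subsets share cells, since a cell can hold 3 of the class genes.

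**Figure D3:**
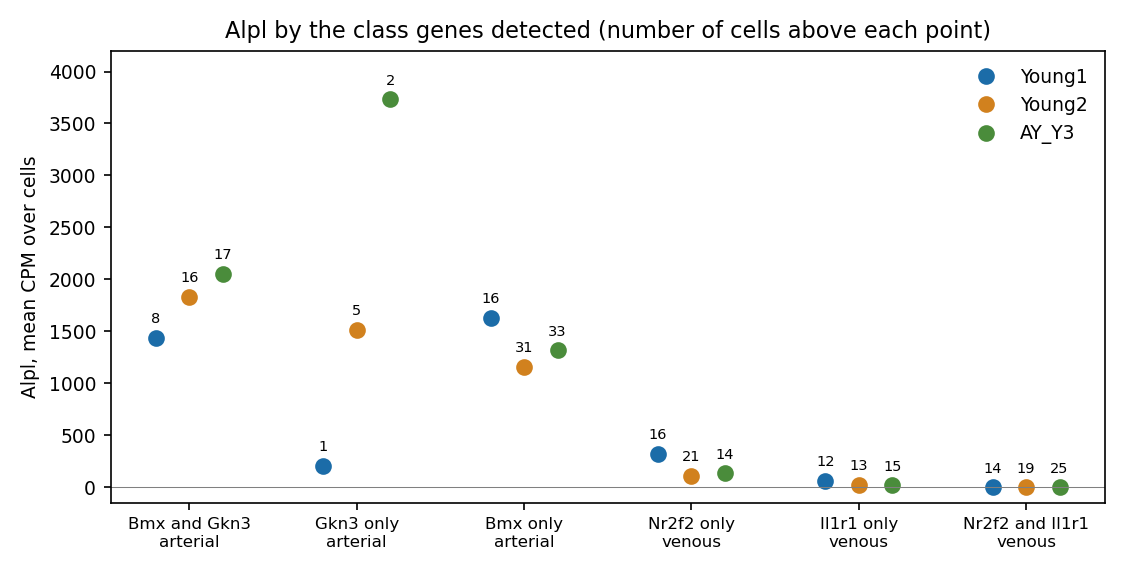
Mean Alpl CPM over the cells of each title prefix (points), grouped by which class genes had a count; the number above each point is its number of cells. Cells with both venous genes lie at or near 0 CPM in every prefix, and arterial-class cells with Bmx, with or without Gkn3, lie between 1161 and 2053 CPM.

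Among remaining cells, Alpl was more frequent where several other arterial markers were detected. The 12 markers include Efnb2, the arterial ephrin ligand, Sox17, a transcription factor of arterial fate, and Gja5, an arterial gap junction protein. Gja5 had a count in 15 cells (2.16%) and was not tested. Of the 10 markers tested, edgeR called 1, Jag1, higher in arterial than in remaining cells, and the median log2 difference was 1.83. Dll4, also among the 12, did not follow this direction, with a log2 difference of −0.27 ± 0.43. Its rho with Alpl over the cells kept was −0.00055 to 0.01. With 3 or more of the 12 markers after thinning, Alpl had a count in 57.1%, 58.3% and 48.7% of remaining cells of Young1, Young2 and AY_Y3, or 54.3% in all. With 2 of them the shares were 34.9%, 19.4% and 28.6%, and with 1 of them 35.9%, 21.95% and 29.4%. With 0 markers the shares were 37.5%, 22.7% and 20%, over 48 cells. The shares with 3 or more lay above all the others and the lower groups overlapped. Median counts per cell were 658611 with 3 or more markers and 548547 with 0, and after thinning Alpl had a count in 51.4% and 27.1% of these cells.

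Alpl CPM and the summed CPM of the arterial markers were positively correlated over the cells of each class. Spearman's rho was 0.33 to 0.42 in arterial, 0.18 to 0.30 in remaining and 0.18 to 0.34 in venous cells over the 3 prefixes. With the capillary marker sum it was −0.32 to −0.19 in remaining cells and −0.48 to −0.0038 in arterial cells, while in venous cells the sign differed between prefixes (−0.22, 0.09 and 0.14 in Young1, Young2 and AY_Y3). Cells of a prefix share their preparation, and the CPM of all genes in a cell share its depth, so these values are descriptions without a test, and in sparse counts a weak rho is no finding.

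The 15 genes most like Alpl over the cells kept all had their highest mean in arterial cells. They were ranked by the lowest of the 3 prefix values of rho among 6008 genes with a count in at least 10% of cells in every prefix. The median gene had a lowest rho of −0.05, and 28 genes reached 0.3 or more. The highest was Amd1, a decarboxylase of polyamine synthesis, with rho of 0.47 in Young1, 0.50 in Young2 and 0.46 in AY_Y3, over the cells kept of each. Its near-copy Amd2 (0.43, 0.45 and 0.43) may hold reads of Amd1, so the pair counts as uncertain. Cdk19, a kinase of the Mediator complex, followed with 0.46, 0.55 and 0.54, and Tm4sf1, an endothelial surface protein of the tetraspan type, with 0.44, 0.48 and 0.49.

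Among the other genes of this group, Mgp, the matrix Gla protein that inhibits calcification, had rho of 0.43 to 0.51 with Alpl and a mean of 1812 ± 631 CPM per arterial cell, against 89.6 ± 49.3 per remaining and 56.3 ± 26.3 per venous cell. Fbln2, a matrix fibulin (0.41 to 0.57), Timp3, an inhibitor of metalloproteinases (0.40 to 0.48), and Clu, the chaperone clusterin (0.39 to 0.54), were also named. So did Cdh13, a cadherin with a GPI anchor like that of Alpl (0.41 to 0.54), Cd9, a tetraspanin (0.41 to 0.51), and Tmem100, an endothelial membrane protein downstream of the receptor Acvrl1 (0.42 to 0.50). The others were Stmn2, a microtubule regulator (0.42 to 0.62), Glul, glutamine synthetase (0.42 to 0.53), Prune2 (0.42 to 0.58) and Msx1, a homeobox factor (0.37 to 0.53). For 14 of these 15 genes, Young1 gave the lowest of the 3 values.

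The 10 genes least like Alpl all had their lowest mean in arterial cells. Tmsb10, an actin-binding thymosin, had rho of −0.51, −0.58 and −0.55 and means of 53.1 ± 15.1, 321 ± 52.5 and 805 ± 87.4 CPM per arterial, remaining and venous cell. Its likely copy Gm9844 had −0.48, −0.59 and −0.46, on fewer reads. Car4, a carbonic anhydrase with a GPI anchor, had −0.50, −0.52 and −0.56. The transporters among them were 5: Slc16a1 for monocarboxylates lay at −0.49 to −0.43, Slc38a5 and Slc7a5 for amino acids at −0.46 to −0.43 and −0.48 to −0.39, and Slco1a4 and Slc22a8 for organic anions at −0.47 to −0.41 and −0.42 to −0.40. Gatm, an enzyme of creatine synthesis, and Pglyrp1, which binds peptidoglycan, completed the 10, at −0.53 to −0.44 and −0.53 to −0.43.

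**Figure D4:**
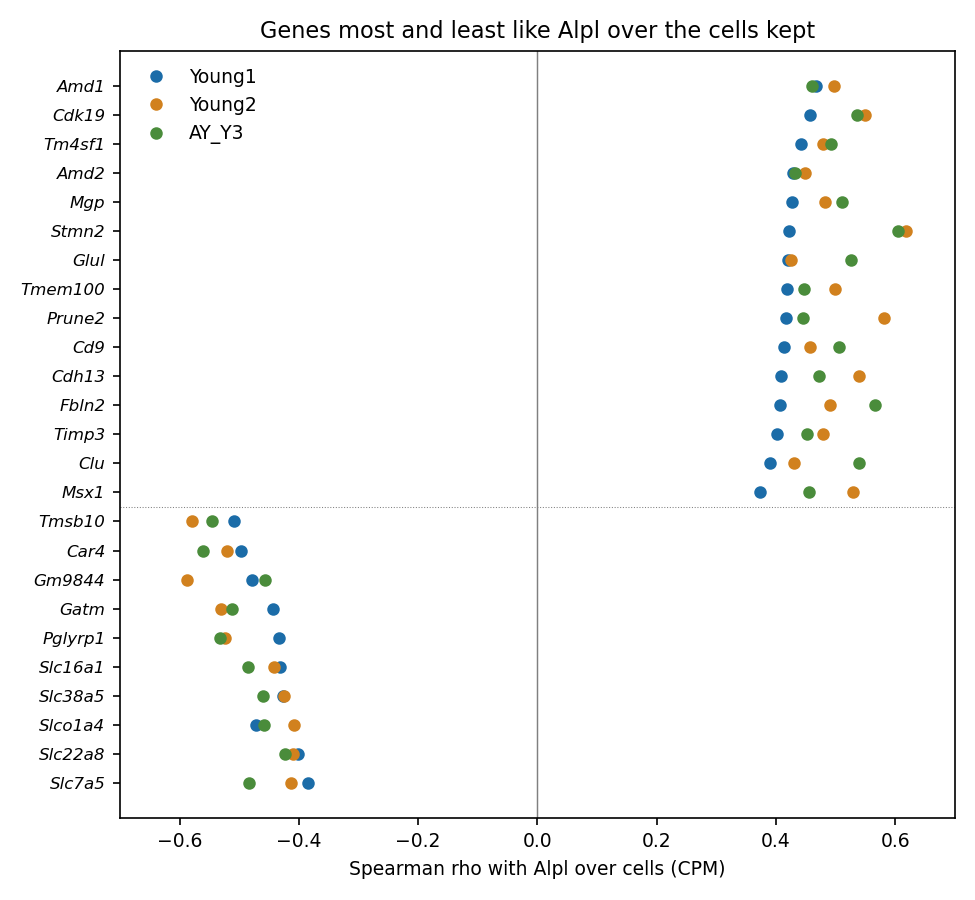
Spearman's rho with Alpl over the cells kept, in each title prefix, for the 15 genes most like it (top) and the 10 least like it (bottom). Every point of the upper group lies at 0.37 or above, and every point of the lower group at −0.39 or below.

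Inside single classes the ranking named mostly other genes. Over arterial cells the gene most like Alpl was Prune2 (0.52, 0.52 and 0.39 over 25, 52 and 52 cells), followed by Atp1b3, a sodium pump subunit (0.30 to 0.38), Laptm5 (0.30 to 0.42), Entpd1 (0.25 to 0.42) and Eps8l2 (0.25 to 0.42). Over remaining cells it was Aif1l (0.32 to 0.41), then Cd9 (0.31 to 0.37), Amd1 (0.27 to 0.34), the glutamine synthetase pseudogene Glns-ps1 (0.27 to 0.31), Slc26a10 (0.26 to 0.40) and Crip1 (0.26 to 0.37). Prune2, Cd9 and Amd1 were thus named over all cells and again inside a class. The ranking over all cells includes the cells of each class, so these rankings are not independent.

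Lists of genes tied to the substrates of Alpl or to brain calcification were set beside it. Of all genes tested, edgeR called 0.401% between arterial and remaining, 0.0779% between venous and remaining and 2.06% between arterial and venous cells. A short list with 0 calls lies near these shares. For the counts that follow, an unadjusted edgeR p below 0.05 was reached by 8.38% of all genes between arterial and remaining, 4.6% between venous and remaining and 12.4% between arterial and venous cells. In the same order of comparisons, DESeq2 called 6.74%, 2.23% and 11.5% of all genes, and limma 5.19%, 4.94% and 9.64%. Levels of list genes are given as CPM of the summed counts, mean ± SD of 3 prefixes, and are not corrected for gene length. Of the genes of phosphate, pyrophosphate and brain calcification, 13 were in the table, 8 passed the filter on low counts, and 0 of these 8 passed the edgeR test in any of the 3 comparisons. At an unadjusted p below 0.05 there were also 0 of 8 in each, DESeq2 called 0, and limma called 1 between arterial and venous cells. Their median log2 difference between arterial and venous cells was 0.22, against −0.05 for all genes tested. Jam2, a junction protein tied to brain calcification, was at 524 ± 34.2, 533 ± 70.5 and 538 ± 76.3 CPM in arterial, remaining and venous cells. Pdgfb, the growth factor that recruits pericytes, was at 492 ± 226.9, 351 ± 82.9 and 299 ± 113.2 CPM, and Ank, which exports ATP and so supplies pyrophosphate, at 58.9 ± 16.4, 42.6 ± 9.09 and 51.8 ± 17.1 CPM. Enpp1, the enzyme that makes extracellular pyrophosphate, had a count in 6 of the 696 cells (0.862%) and did not pass the filter.

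For extracellular nucleotides, 6 of 15 genes in the table were tested, and 1 rose from venous to arterial cells while edgeR called 0 in the other comparisons. Against remaining cells, 4 of the 6 had an unadjusted p below 0.05 in arterial cells and 1 in venous cells; DESeq2 called 3 and 1, and limma 2 and 1. P2ry2, a receptor for ATP and UTP, was at 277, 251.7 and 181.4 CPM in the arterial sums of Young1, Young2 and AY_Y3, and at 7.20, 24.03 and 2.63 CPM in the venous sums. The sums did not overlap, and the log2 difference was 4.87 ± 0.63 (edgeR adjusted p = 0.0108); leaving out any prefix ended this call (adjusted p = 0.0620 to 0.125), as did class genes at 10 counts or more (9.10, adjusted p = 0.128) or after thinning (9.28, 0.119). With cells left out from 1000 CPM of other markers the difference was 10.48 (adjusted p = 0.0261). Entpd1, the ectonucleotidase CD39, was at 461 ± 39.6 CPM in arterial, 180 ± 47.8 CPM in remaining and 206.2 ± 66.5 CPM in venous cells and missed the threshold (edgeR adjusted p = 0.0878 and 0.0735 against remaining and venous cells). Adk, adenosine kinase, was at 29.7 ± 44.6, 62.9 ± 41.6 and 115.6 ± 30.6 CPM. Nt5e, the nucleotidase CD73 that yields adenosine like Alpl does, had a count in 1 of the 696 cells (0.144%). The list's median was 0.75 between arterial and venous cells, against −0.05 for all genes.

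Of the machinery that Alpl needs to reach the surface, 0 genes passed the edgeR test, which lies near the share called over all genes. Of 29 genes that assemble and trim GPI anchors, 17 were tested and 0 were called in each comparison, with a median log2 difference of −0.45 between arterial and venous cells against −0.05 for all genes. An unadjusted p below 0.05 was reached by 2 of the 17 between arterial and remaining, 0 between venous and remaining and 3 between arterial and venous cells; DESeq2 called 1, 0 and 1, and limma called 0. These counts lie near the shares of all genes. The most abundant were Gpaa1, a subunit of the transamidase that attaches the anchor (170.99 ± 134.8, 65.5 ± 26.4 and 46.05 ± 20.8 CPM in arterial, remaining and venous cells), Pigq (92.5 ± 19.3, 81.03 ± 31.5 and 53.7 ± 17.04 CPM) and Pigs (72.1 ± 64.3, 58.03 ± 37.1 and 86.95 ± 61.5 CPM). The 3 zinc carriers that load secreted enzymes, Slc30a5, Slc30a6 and Slc30a7, lay between 25.8 and 53.7 CPM in all classes, and 0 of 3 were called. Of the genes listed for vitamin B6 use, 3 of 5 were tested and 0 were called. Pdxk, pyridoxal kinase, was at 246.2 ± 125.97, 324 ± 23.5 and 294 ± 2.30 CPM. Slc19a3, a thiamine carrier placed on this list, was at 136.9 ± 47.6, 243.8 ± 57.6 and 204.5 ± 118.8 CPM. Prosc, which binds pyridoxal phosphate, was at 79.3 ± 47.4, 102.5 ± 27.9 and 93.5 ± 21.5 CPM. In these zinc and vitamin lists 0 genes had an unadjusted p below 0.05, and DESeq2 and limma called 0.

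Other GPI-anchored surface proteins moved in both directions. Of 20 such genes with counts listed, 14 were tested; between arterial and remaining cells 1 rose and 1 fell, and between arterial and venous cells 2 rose and 1 fell. Car4 fell in arterial cells, from 2149 ± 153.4 CPM in remaining and 2748 ± 261.6 CPM in venous to 120.96 ± 53.4 CPM in arterial cells (log2 differences −4.17 ± 0.28 and −4.52 ± 0.29, edgeR adjusted p = 0.00419 and 0.00106). Ly6c1, an Ly6 surface protein, rose to 9523 ± 997 CPM from 7218 ± 613 and 6312 ± 515 CPM (0.44 ± 0.06 and 0.64 ± 0.06, adjusted p = 0.0270 and 0.00283). Ly6a rose from 5589 ± 396 CPM in venous to 7142 ± 572 CPM in arterial cells (0.40 ± 0.08, adjusted p = 0.0455), a call held under 2 of 14 alternatives. Ly6a and Ly6c1 belong to a family with close copies and may share reads with them. Cdh13 was at 578 ± 5.65, 112.7 ± 33.6 and 4.28 ± 7.41 CPM in arterial, remaining and venous cells and missed the threshold (edgeR adjusted p = 0.0919 between arterial and venous cells). The median of the 14 was 0.23 between arterial and venous cells and 0.17 between arterial and remaining cells, against −0.05 and −0.07 for all genes.

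Among regulators of mineralisation, 3 of 11 genes in the table were expressed widely enough to test, and 2 rose from venous to arterial cells. Mgp was at 1135, 1067 and 2420 CPM in the arterial sums and 10.04, 44.2 and 69.7 CPM in the venous sums of Young1, Young2 and AY_Y3, without overlap (5.29 ± 0.72, edgeR adjusted p = 0.0132). Acvrl1, the endothelial receptor for the ligands BMP9 and BMP10, was at 1026 ± 124.5 CPM in arterial and 583 ± 74.3 CPM in venous cells (0.87 ± 0.13, adjusted p = 0.0204). Bmpr2, its partner receptor, was at 409 ± 56.98, 481 ± 62.9 and 510 ± 209.3 CPM in arterial, remaining and venous cells. The other 8 genes did not pass the filter. Among them Bmp2, a ligand of bone formation, had a count in 10 of the 696 cells (1.44%). Bmp2 was at 4.21, 19.4 and 10.2 CPM in the arterial sums and 0 in the remaining sums, and was not tested. The rest of the 8 averaged 0 to 0.208 CPM in the arterial sums.

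Routes of uptake were described beside Alpl because the series concerns passage into the brain. Of 10 caveolar genes tested, 0 were called against remaining cells by edgeR (at an unadjusted p below 0.05, 5 were higher and 1 lower in arterial cells, and 1 higher and 1 lower in venous cells; DESeq2 called 6 and 0, limma 7 and 1), and 1 rose from venous to arterial cells: Prkcdbp, a caveolar coat protein, at 306 ± 48 against 147.6 ± 26.3 CPM (1.11 ± 0.21, edgeR adjusted p = 0.0481), a call held under 5 of 14 alternatives and lost without the block (adjusted p = 0.0635). The gene on the lower side was Mfsd2a, a lipid carrier that restrains caveolar transport, at 337 CPM in arterial, 742 CPM in remaining and 488 CPM in venous cells (−1.09, edgeR adjusted p = 0.0841 between arterial and remaining cells). Ptrf, the main coat protein, was at 2495 ± 462, 1861 ± 126.7 and 1847 ± 29.3 CPM in arterial, remaining and venous cells, Sdpr at 766 ± 148.5, 678 ± 55.1 and 679 ± 99.6 CPM, and Cav1 at 795 ± 138.9, 526 ± 110.5 and 679 ± 11.3 CPM. Of 12 genes of receptor-mediated uptake, 1 was lower in arterial than in remaining cells and 2 were lower in arterial than in venous cells, with a list median of −1.02 in the latter against −0.05 for all genes. At an unadjusted p below 0.05, 9 of the 12 were lower and 0 higher in arterial than in remaining cells, and 9 were lower and 1 higher in arterial than in venous cells. DESeq2 called 8 and 9 of them and limma 4 and 10. Bsg, basigin, was at 13032 ± 1239 CPM in arterial, 19184 ± 188.01 CPM in remaining and 17720 ± 392 CPM in venous cells (−0.52 ± 0.06 and −0.39 ± 0.06, adjusted p = 0.0268 and 0.0260). Tfrc, the transferrin receptor, fell from 307 ± 67.6 CPM in venous to 43.3 ± 22.2 CPM in arterial cells (−2.90 ± 0.43, adjusted p = 0.0189). Fcgrt, the neonatal Fc receptor, and Igf1r missed the threshold, at 557 ± 59.5 and 366 ± 140.6 CPM in arterial and 1004 ± 215.9 and 659 ± 54.05 CPM in venous cells. Over the cells kept, rho between Alpl and Tfrc lay between −0.35 and −0.28.

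Among these 12 calls of list genes, the call of Car4 between arterial and venous cells held under 14 of 14 alternatives, and 0 calls changed sign under any alternative. Leaving out single prefixes ended most of the others: without Young2 or without AY_Y3, every call between arterial and venous cells but that of Car4 was lost, and so were those of Bsg and Ly6c1 between arterial and remaining cells, where Car4 was lost without AY_Y3 (adjusted p = 0.140).

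**Figure D5:**
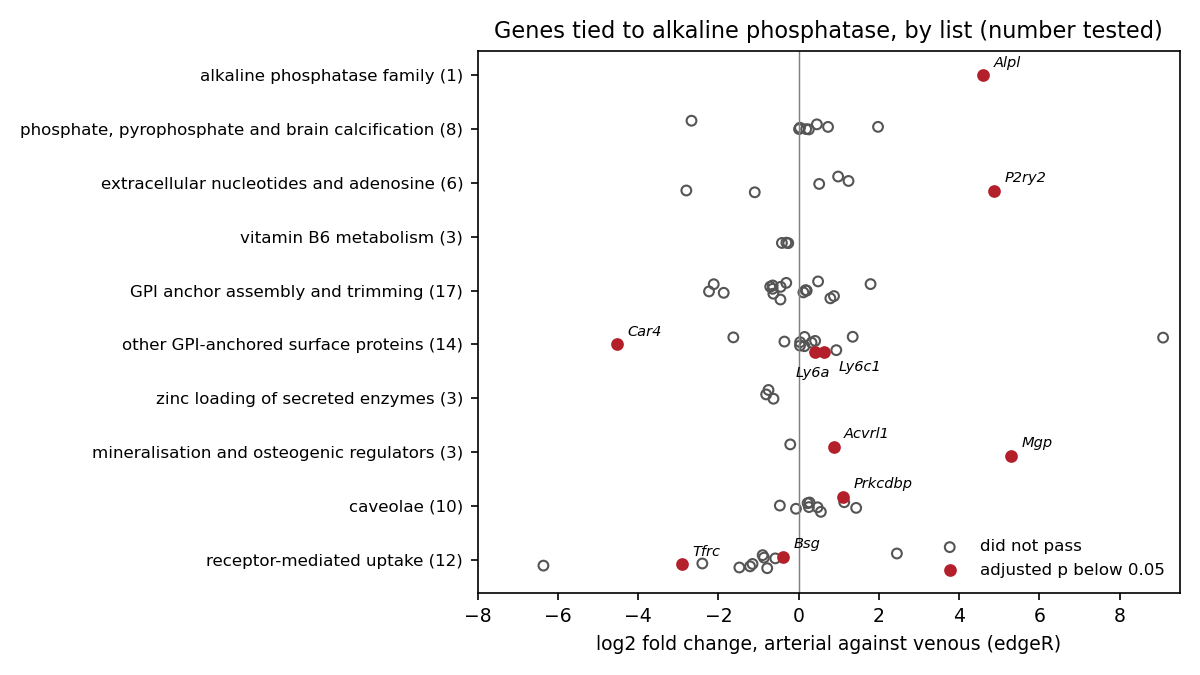
log2 fold change between arterial and venous cells (edgeR; above 0 is higher in arterial cells) for the tested genes of each list, with the number tested in brackets; filled points passed an adjusted p of 0.05. Alpl lies at 4.60, and the genes of phosphate handling, GPI anchor assembly, zinc loading and vitamin B6 hold 0 filled points. Of all genes tested, 2.06% passed in this comparison.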

How the data were processed

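The deposited file held whole-number read counts per gene with no normalization, 20607 gene symbols, per the file headers and values; 0 columns were unused. The submitters' processing notes name Bowtie 0.12.2 and 2 builds, mm8 and mm10, with no role for either. No source used here states the counting tool, the annotation or strandedness, so reads of close copies or antisense genes may be shared.

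Every cell had 52819 to 2421434 counts. CPM were computed per cell or from summed counts. Cells with 5000 CPM or more of markers of another cell type were left out, and classes with at least 10 cells in every prefix entered the fit. Counts were summed per prefix and class (9 sums, 4 residual degrees of freedom) and fitted with edgeR 4.0.16 (R 4.3.3), TMM library sizes and the prefix as a block, because every class came from each prefix. Genes tested were those past edgeR's default abundance filter and detected in 5% of cells or more; the 4 class genes were left out. Adjusted p (Benjamini-Hochberg, threshold 0.05) cover all genes tested. The fitting code was also run on simulated sums with changes placed in arterial sums only. Their spread came from the fit itself, so the simulation does not speak to prefix effects or sparse counts. Intervals of shares are exact (Clopper-Pearson, scipy 1.17.1). No doublet caller was run; 0 pairs of cells held identical counts.

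Alternatives were DESeq2 1.42.0, limma 3.58.1 on mean log2(CPM + 1), other filters, class rules and depths, no block, and leaving out each prefix. Named genes were those of the lists past the threshold, the 3 most abundant of each list, and by likeness the 15 highest and 10 lowest over all cells and the 6 highest within a class, of which 1 is not reported here. A few others (Enpp1, Nt5e, Cdh13 among its list, Mylk, Acta2, Myh11, Mfsd2a, Bmp2, Gja5, Dll4) were named after their values were seen. Alpl, its classes and the lists were chosen with earlier results of these data known. Promoter sequences are from RefSeq, GRCm38.p6, and carry no link to the build used for counting. Other alkaline phosphatase genes were not analysed here.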

Additional observations from a re-analysis of the deposited data

Results flagged for a closer look

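Alpl also appeared in cells outside the comparisons. Among the 49 cells left out for markers of other cell types, 38 of them for pericyte markers, 15 had an Alpl count (30.6%, exact 95% interval 18.3 to 45.4), with a mean of 222.6 CPM. By the class genes, 3 of 4 arterial, 3 of 14 remaining, 6 of 26 venous and 3 of 5 cells with a gene of each pair had it. Among the 27 cells kept that had an arterial and a venous gene, 12 had an Alpl count (44.4%, 25.5 to 64.7). No control samples exist for these cells, and the shares are given as values.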

How the results depend on the processing

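Alpl kept its direction in all 3 comparisons under all 14 alternatives of each. Between arterial and remaining cells, where it missed the threshold, it passed with cells of both classes counted as venous (log2 difference 1.93, adjusted p = 0.0306), with thinned counts (2.11, 0.00767), under DESeq2 (1.99, 0.00114) and under limma (5.47, 7.89e-06); over all alternatives adjusted p ran from 7.89e-06 to 0.559. Between venous and remaining cells it passed with thinned counts (−2.38, 0.0182), under DESeq2 (−2.62, 1.06e-05) and limma (−2.15, 0.0155), over a range of 1.06e-05 to 0.9997. The cause was not tested. Cells of both classes counted as venous moved the difference to −1.23 between venous and remaining cells (adjusted p = 0.457) and to 3.16 between arterial and venous cells (0.00255). Leaving out each prefix gave 1.86 to 2.08 between arterial and remaining cells, −3.18 to −2.23 between venous and remaining cells (adjusted p = 0.0315 without Young1) and 4.09 to 5.25 between arterial and venous cells; fewer samples were then fitted. On limma's scale, where 0 counts weigh most, Alpl differed by 7.63 between arterial and venous cells, and the median of all genes moved to 0.18, 0.37 and −0.16 in the 3 comparisons. Without the prefix block the 3 differences were 1.93, −2.46 and 4.38 and changed no call of Alpl. Leaving cells with genes of both classes out is the same fit, since they did not enter it.

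The share of genes called depended on the setting: 36 genes or 0.401% between arterial and remaining cells (0% without AY_Y3 to 6.74% under DESeq2), 7 genes or 0.0779% between venous and remaining cells (0% under 5 alternatives to 4.94% under limma) and 2.06% between arterial and venous cells (0.124% without Young2 to 11.5% under DESeq2). Of the calls between arterial and remaining cells 22.2% were higher in arterial cells, against 41.6% under DESeq2 and 82.8% under limma; between venous and remaining cells 14.3% were higher, against 98.9% under limma, and between arterial and venous cells 56.2%, against 30.3% under limma. Detection shares of Alpl moved by less than 1 SD under their 4 alternatives. Of the 15 genes most like Alpl, 13 were shared after thinning, 7 with genes in 25% of cells or more and 8 without Young1.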
